A study of Mus musculus with 8 samples.

Results

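Type I interferon-stimulated antiviral genes were examined in mouse endometrium, the lining of the uterus, 8 h after mating. The genes were a list of 40 named members of the interferon response, taken as the measured transcript clusters that carry each member's symbol, with the lowest cluster number standing for a gene that has several. Of the 40 genes, 39 had a cluster, among 41345 clusters on the array. The other, Ifi27, had no cluster under that symbol. Members were sorted by role into 2 receptors, 5 sensors, 9 regulators and 23 effectors, of which 7 belong to the OAS family.

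CBA x C57Bl/6 F1 (CBAF1) females were mated with Balb/c males. In the Intact group, coitus exposed the female tract to seminal fluid. In the SVX/VAS group, coitus took place without that exposure (the labels do not spell the abbreviation out). Each group had 4 arrays (Affymetrix Mouse Gene 2.0 ST), each hybridised with RNA from an independent pool of 4 females, 16 females per group, so the error terms measure the spread between pools and not between animals. There was no unmated group, so a response shared by both matings cannot be seen in these comparisons. Values are log2 expression per cluster as the authors normalised it, and a level is not comparable between genes, because probes differ in brightness.

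As background, type I interferons bind a receptor made of Ifnar1 and Ifnar2, whose kinases Jak1 and Tyk2 phosphorylate STAT proteins. Stat2 joins Irf9 in the complex ISGF3, which binds the interferon-stimulated response element (ISRE) in the promoters of antiviral genes. Interferon gamma acts mainly through a different element (GAS). The uterine epithelium also makes Ifne, an epithelial type I interferon, without infection.

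Members of this family carried the sequence letters of these elements more often than promoters at large. RefSeq promoter windows (GRCm38.p6) were at hand for 30 of the 39 genes, and the 250 bases before each start were searched on both strands for the ISRE core, which is GAAA, any 2 bases and GAAA again, and for the GAS core TTCNNNGAA. The ISRE core was found for 10 of 30 genes, or in 26.3% of their 38 windows, against 2.98% of all 32851 windows. Those genes were Bst2, Ifit1, Ifit3, Isg15, Oas1a, Oas1g, Oas3, Rsad2, Stat2 and Trim30a. The GAS core was found in 18.4% of the members' windows, against 7.02% of all windows. The 5 stretches printed here are the 150 bases before the start, 5′ to 3′ along the gene, with matches to either core in capitals. They were chosen after the values were seen: Isg15, Isg20 and Bst2 for their place among the smallest p-values, and Ifit1 and Rsad2 as widely used interferon reporters with means close together in the 2 groups.
Isg15 (chr4:156200819-156200968, minus strand): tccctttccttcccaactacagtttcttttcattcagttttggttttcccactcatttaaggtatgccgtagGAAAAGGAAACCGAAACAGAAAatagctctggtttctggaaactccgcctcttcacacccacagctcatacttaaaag
Isg20 (chr7:78913274-78913423, plus strand): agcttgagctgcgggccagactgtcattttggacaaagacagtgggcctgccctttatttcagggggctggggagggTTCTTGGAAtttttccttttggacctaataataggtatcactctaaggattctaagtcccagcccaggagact
Bst2 (chr8:71537473-71537622, minus strand): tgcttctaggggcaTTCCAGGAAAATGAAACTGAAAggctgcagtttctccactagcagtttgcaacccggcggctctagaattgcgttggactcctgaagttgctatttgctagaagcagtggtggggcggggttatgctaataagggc
Ifit1 (chr19:34640739-34640888, plus strand): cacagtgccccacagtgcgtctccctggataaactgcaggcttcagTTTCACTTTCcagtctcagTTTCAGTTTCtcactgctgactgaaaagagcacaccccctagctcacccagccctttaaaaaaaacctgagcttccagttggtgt
Rsad2 (chr12:26456453-26456602, minus strand): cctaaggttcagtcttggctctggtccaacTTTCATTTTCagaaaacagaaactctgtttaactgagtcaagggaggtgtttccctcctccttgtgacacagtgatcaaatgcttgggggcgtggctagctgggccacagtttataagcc

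Isg15 held 3 overlapping ISRE matches, beginning 78, 72 and 66 bases before the start, and Ifit1 held 2 separate ones at 104 and 85 bases. Rsad2 held 1, at 120 bases. In Bst2 a GAS match at 136 bases overlapped the first of 2 ISRE matches at 130 and 124 bases. One of the 3 windows of Isg20 held a GAS match at 73 bases, and none held the ISRE letters. A match describes the letters only and does not show that a factor binds there.

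No member passed the test across the whole table. With limma and Benjamini-Hochberg adjustment over all clusters, 0 of 39 members had an adjusted p under 0.05, where 0.0822% of all clusters did (21 higher with Intact mating, or 0.0508%, and 13 lower, or 0.0314%). The lowest adjusted p of a member was 0.17. By the submitters' own criteria, a fold of at least 1.5 with an unadjusted p under 0.05, 1 member was higher (Isg20), against 0.900% of all clusters, and 0 were lower, against 1.57%. Those shares use limma's p. In the authors' deposited table, with its own p-values, the same criteria held for 1 member higher and 0 lower, against 0.733% and 1.12% of all clusters. A weaker reading, the unadjusted p alone, gave 6 members higher with Intact mating (Isg15, Isg20, Xaf1, Bst2, Zbp1 and Ifnar2), or 15.4% of the 39 against 5.13% of all clusters and 5.95% of those past the filter on dim clusters. It gave 0 lower, against 6.78% of all clusters and 9.09% of those past the filter. All 39 members passed that filter, which keeps clusters above the 40th percentile of their array on at least 4 arrays. The count of 6 became 3 without Intact replicate 2, without Intact replicate 4 or without SVX/VAS replicate 3, and 10 with quantile normalization.

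The differences were small. The log2 fold change, Intact minus SVX/VAS, was above 0 for 30 of 39 members, against 50.1% of all clusters and 47.0% of those past the filter, and for 33 with quantile normalization and 29 with median centring. That count depended on single arrays: it was 22 without Intact replicate 4, 24 without Intact replicate 2 and 26 without SVX/VAS replicate 3, and 28 to 33 with any other array left out. Its median was 0.09 over the members and 0.00 over all clusters. That median became 0.03 without Intact replicate 2 or Intact replicate 4, 0.05 without SVX/VAS replicate 3 and 0.15 without Intact replicate 3. For 35 of 39 members (89.7%) the 95% interval lay wholly inside 1.5-fold in either direction. The share was 68.4% of all clusters and 72.0% of those past the filter. The 4 members for which it did not were Isg15, Isg20, Oasl1 and Usp18. A p that misses the threshold does not show that the groups are alike, and these intervals give what the arrays leave possible gene by gene.

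**Figure D1:**
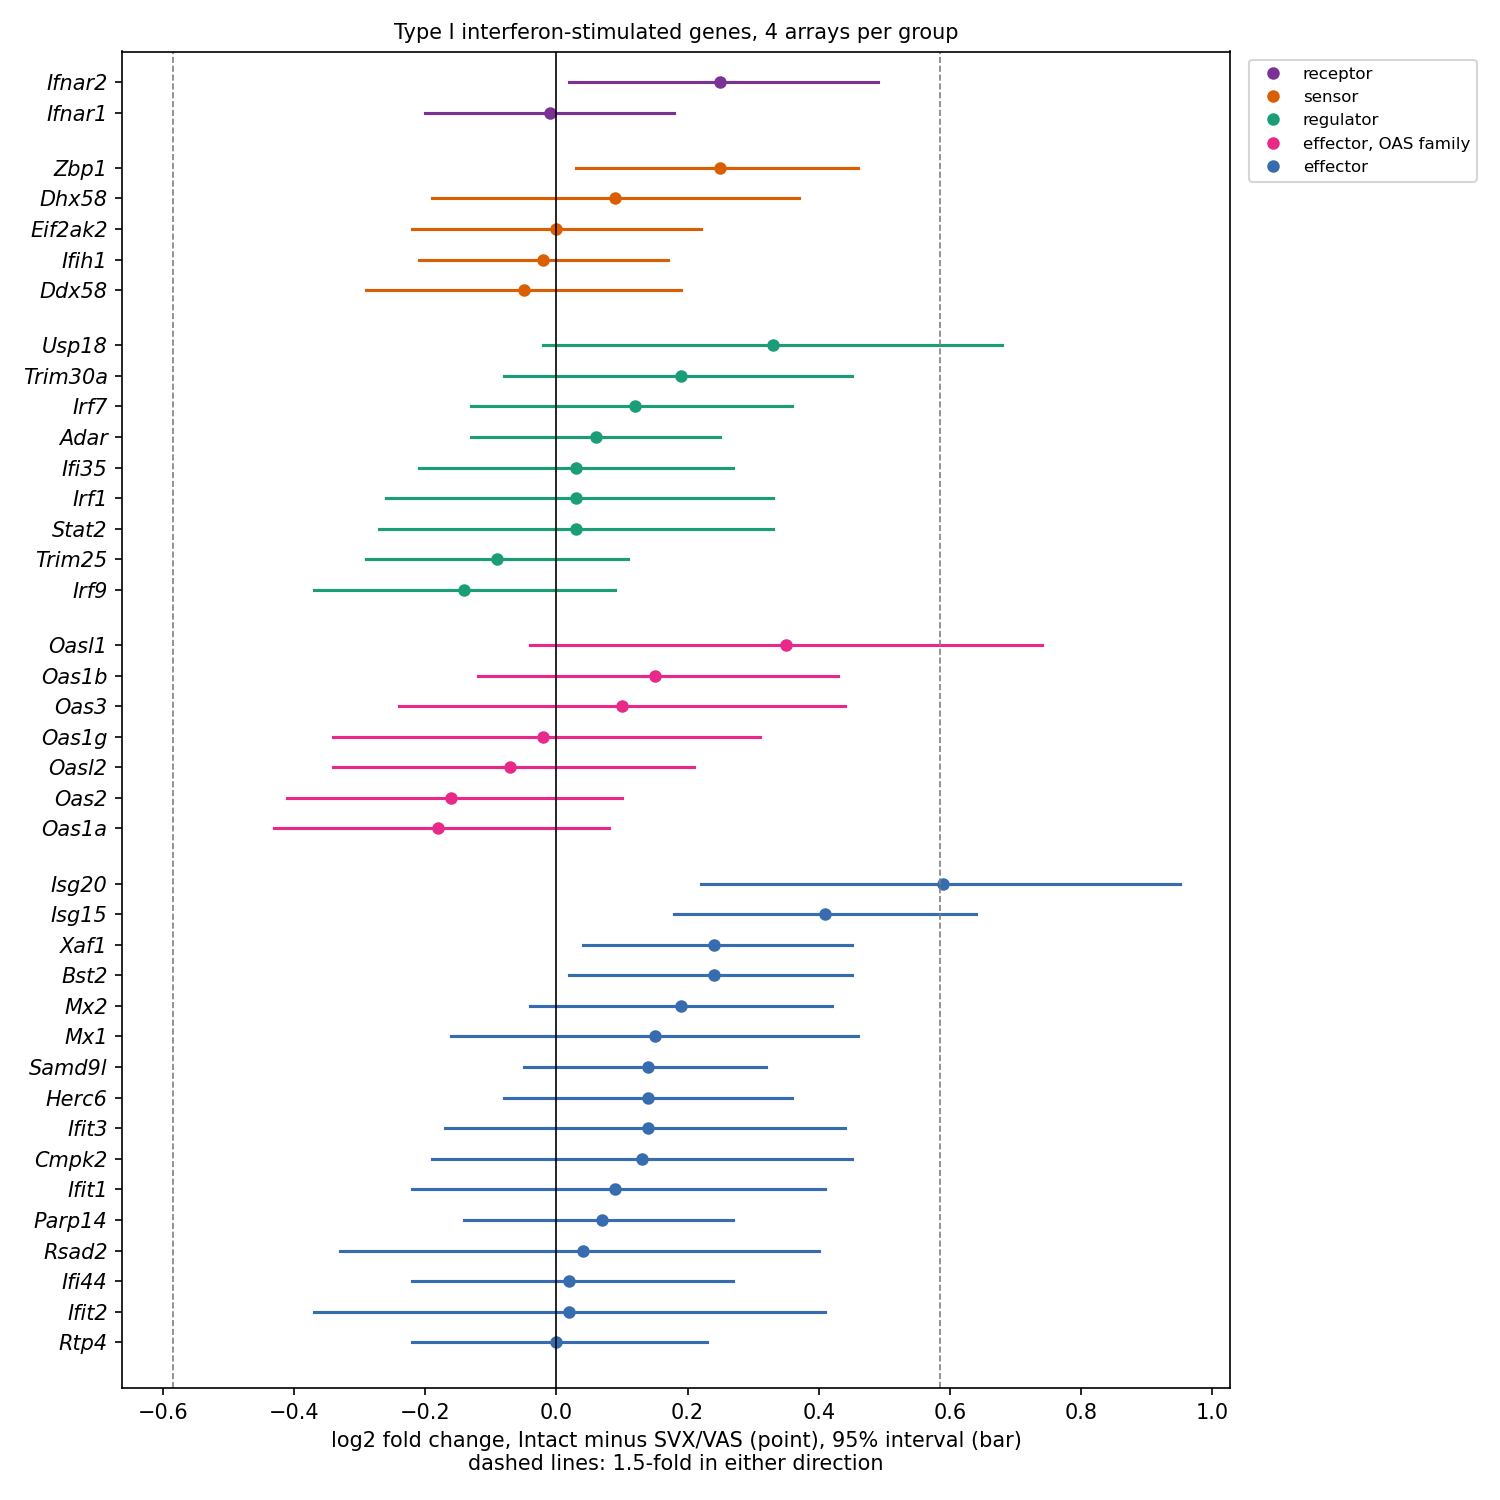
Log2 fold change (x axis, Intact minus SVX/VAS) of the 39 measured interferon-stimulated genes, by role, with 95% intervals from limma as bars and 1.5-fold in either direction as dashed lines. Most intervals span 0, and the points furthest right are Isg20 (0.59) and Isg15 (0.41).

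The receptor chains differed in their values. Ifnar2, the long-tailed chain that binds the kinase Jak1, read 9.26, 9.46, 9.35 and 9.57 in Intact replicates 1 to 4, against 9.14, 9.15, 9.04 and 9.31 in SVX/VAS replicates 1 to 4. The groups overlapped only through SVX/VAS replicate 4, which was above Intact replicate 1. Its log2 fold change was 0.25 (95% interval 0.02 to 0.49, adjusted p = 0.39 by limma). Ifnar1, the chain that binds Tyk2, read 8.64, 8.80, 8.70 and 8.81 in Intact pools, against 8.69, 8.76, 8.72 and 8.81 in SVX/VAS pools. Those ranges nearly coincide, with a log2 fold change of -0.01 (95% interval -0.20 to 0.18).

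Among the 5 sensors of foreign nucleic acid the median log2 fold change was 0.00, against 0.00 over all clusters, and 1 sensor stood clear between the groups. Zbp1, which recognises Z-form nucleic acid and starts necroptosis, read 9.80, 9.82, 9.75 and 9.95 in Intact pools, against 9.65, 9.66, 9.41 and 9.61 in SVX/VAS pools. Every Intact pool was above every SVX/VAS pool, at 1.19-fold (95% interval 1.02 to 1.38, adjusted p = 0.36 by limma). In all, 4 of 39 members (10.3%) were separated this way, against 3.37% of all clusters and 4.19% of those past the filter. In the opposite direction there were 0, against 4.81% and 7.03%.

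Cytoplasmic RNA helicases gave no such separation. Ddx58 (RIG-I), the sensor of uncapped RNA ends, read 8.64, 8.95, 8.76 and 9.0 in Intact pools, against 8.90, 8.96, 8.76 and 8.93 in SVX/VAS pools. Ifih1 (MDA5), the sensor of long double-stranded RNA, read 8.96, 8.99, 8.90 and 9.02 in Intact pools, against 9.06, 9.03, 8.89 and 8.96 in SVX/VAS pools. Both genes overlapped across their whole ranges, with log2 fold changes of -0.05 (SE 0.108) and -0.02 (SE 0.085). Dhx58 (LGP2), which tunes those helicases, and Eif2ak2 (PKR), the kinase that halts translation on double-stranded RNA, had log2 fold changes of 0.09 and 0.00.

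None of the 9 regulators reached an unadjusted p under 0.05, and their median log2 fold change was 0.03. Usp18, the protease that removes Isg15 from proteins and damps signalling at Ifnar2, read 8.59, 8.94, 8.49 and 9.19 in Intact pools, against 8.41, 8.55, 8.41 and 8.52 in SVX/VAS pools. Intact replicates 2 and 4 were high, while Intact replicate 3 lay inside the SVX/VAS range. The log2 fold change was 0.33 with a 95% interval of -0.02 to 0.68 (adjusted p = 0.44 by limma).

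The transcription factors of the response were close between the groups. Irf7, which amplifies interferon production, read 10.05, 10.14, 10.03 and 10.42 in Intact pools, against 10.13, 10.05, 10.02 and 9.98 in SVX/VAS pools. Only Intact replicate 4 stood well above the SVX/VAS range. Irf1, a factor strongly induced by interferon gamma, read 8.16, 8.38, 7.98 and 8.48 in Intact pools, against 8.32, 8.33, 8.15 and 8.07 in SVX/VAS pools. Stat2, the ISGF3 subunit that carries its activation domain, read 9.11, 9.13, 8.78 and 9.32 in Intact pools, against 8.96, 9.23, 8.94 and 9.08 in SVX/VAS pools. For Irf1 and Stat2 the lowest of all 8 pools was Intact replicate 3 and the highest was Intact replicate 4, so the Intact range enclosed that of SVX/VAS. The log2 fold changes were 0.12 for Irf7, 0.03 for Irf1 and 0.03 for Stat2, and -0.14 (95% interval -0.37 to 0.09) for Irf9, the DNA-binding subunit of ISGF3.

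Trim30a, a mouse ring-finger protein that restrains NF-kB signalling, read 7.52, 7.36, 7.27 and 7.53 in Intact pools, against 7.33, 7.41, 7.18 and 7.02 in SVX/VAS pools. The groups overlapped, with a log2 fold change of 0.19 (adjusted p = 0.57 by limma). Trim25, the ubiquitin ligase that acts on RIG-I, Adar, which edits adenosine in double-stranded RNA, and Ifi35 had log2 fold changes of -0.09, 0.06 and 0.03. A further cluster of Ifi35, not the one chosen by the rule, gave 0.18 (adjusted p = 0.57 by limma).

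**Figure D2:**
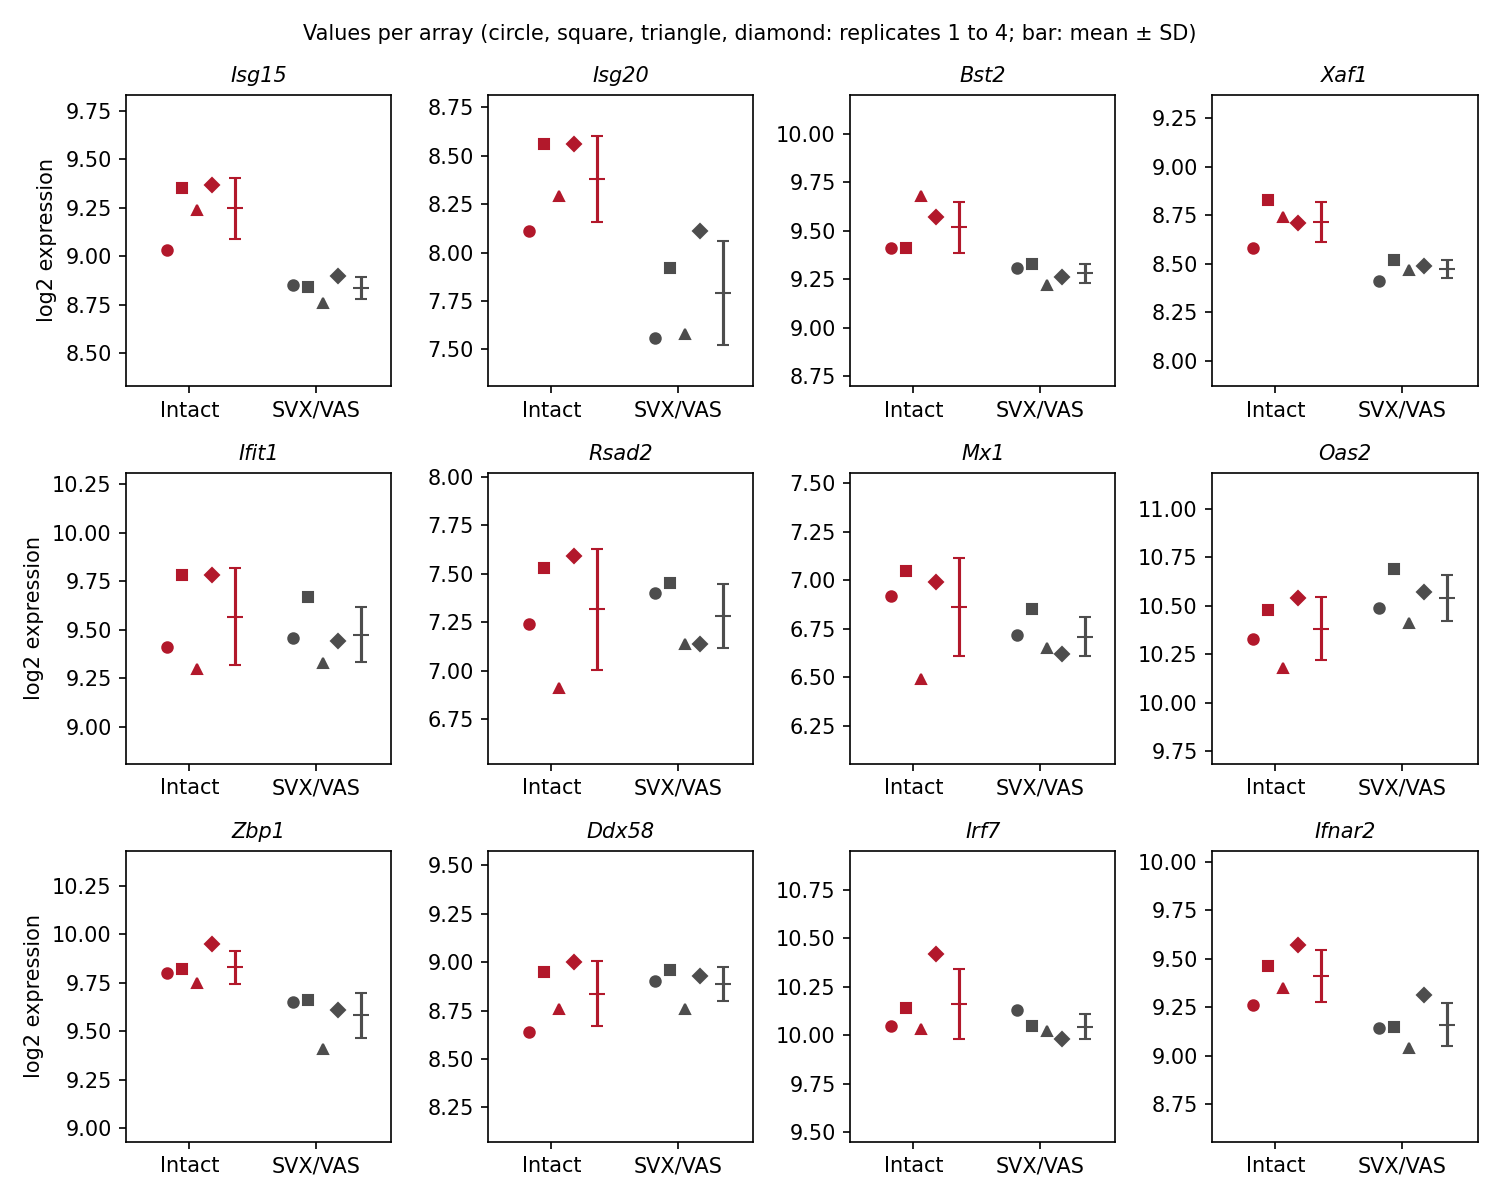
Log2 expression (y axis, all panels 1.5 units tall) of 12 interferon-stimulated genes on each array, with the 4 Intact pools left of the 4 SVX/VAS pools; symbols mark replicates and bars the mean ± SD. Isg15, Bst2, Xaf1 and Zbp1 are separated between the groups, and Ifit1, Rsad2, Mx1, Oas2, Ddx58 and Irf7 overlap.

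The effectors outside the OAS family held the largest differences. All 16 had a log2 fold change of 0.00 or above as printed, with a median of 0.14, where 50.1% of all clusters were above 0. Of the 16, 4 were higher with an unadjusted p under 0.05, against 5.13% of all clusters. With the OAS family counted in, 19 of 23 effectors were above 0 and 4 below, with a median of 0.13. Isg15, the ubiquitin-like protein that is conjugated to host and viral proteins, read 9.03, 9.35, 9.24 and 9.37 in Intact pools, against 8.85, 8.84, 8.76 and 8.90 in SVX/VAS pools. Every Intact pool was above every SVX/VAS pool, and the SVX/VAS pools lay close together. The group means were 9.25 ± 0.15 with Intact mating and 8.84 ± 0.06 with SVX/VAS mating (SD, n = 4 each), a 1.33-fold difference (95% interval 1.13 to 1.56). Its unadjusted p was 0.0028 in limma and its adjusted p 0.17.

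Isg20, an exonuclease that degrades viral RNA, read 8.11, 8.56, 8.29 and 8.56 in Intact pools, against 7.56, 7.92, 7.58 and 8.11 in SVX/VAS pools. The groups met at Intact replicate 1 and SVX/VAS replicate 4, and the other Intact pools lay above all SVX/VAS pools. Means of 8.38 ± 0.22 with Intact mating and 7.79 ± 0.27 with SVX/VAS mating (SD, n = 4 each) gave 1.50-fold, with a 95% interval of 1.17 to 1.93 and an adjusted p of 0.20 in limma. The fold fell short of the submitters' 1.5 without Intact replicate 2, Intact replicate 4, SVX/VAS replicate 1 or SVX/VAS replicate 3. With each array left out in turn, the log2 fold change ranged between 0.51 and 0.69.

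Smaller separations were found for a pair of further effectors. Xaf1, a factor that promotes apoptosis, read 8.58, 8.83, 8.74 and 8.71 in Intact pools, against 8.41, 8.52, 8.47 and 8.49 in SVX/VAS pools. Bst2 (tetherin), which holds budding virus at the cell surface, read 9.41, 9.41, 9.68 and 9.57 in Intact pools, against 9.31, 9.33, 9.22 and 9.26 in SVX/VAS pools. For both genes every Intact pool was above every SVX/VAS pool, at 1.18-fold. Their adjusted p-values in limma were 0.32 for Xaf1 and 0.37 for Bst2.

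The GTPases and Samd9l overlapped between the groups. Mx2, a dynamin-like GTPase, read 7.29, 7.35, 7.08 and 7.27 in Intact pools, against 6.92, 7.06, 7.07 and 7.19 in SVX/VAS pools. Mx1, the nuclear GTPase that blocks influenza virus and is defective in most inbred mouse strains, read 6.92, 7.05, 6.49 and 6.99 in Intact pools, against 6.72, 6.85, 6.65 and 6.62 in SVX/VAS pools. For both, 3 Intact pools were above all SVX/VAS pools and Intact replicate 3 was not, and for Mx1 that pool was the lowest of all. Samd9l, which limits translation in infected cells, read 8.46, 8.56, 8.39 and 8.52 in Intact pools, against 8.33, 8.35, 8.39 and 8.31 in SVX/VAS pools. Here too the overlap came from Intact replicate 3 and SVX/VAS replicate 3. The log2 fold changes were 0.19 for Mx2, 0.15 for Mx1 and 0.14 for Samd9l, with adjusted p-values in limma of 0.50, 0.72 and 0.56.

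Ifit1 and Rsad2 had means close together in the groups, unlike Isg15. Ifit1, which binds the ends of viral RNA, read 9.41, 9.78, 9.30 and 9.78 in Intact pools, against 9.46, 9.67, 9.33 and 9.44 in SVX/VAS pools. Rsad2 (viperin), which makes a chain-terminating nucleotide, read 7.24, 7.53, 6.91 and 7.59 in Intact pools, against 7.40, 7.45, 7.14 and 7.14 in SVX/VAS pools. In both, Intact replicates 2 and 4 were the highest of the 8 pools and Intact replicate 3 the lowest. Their log2 fold changes were 0.09 (95% interval -0.22 to 0.41) and 0.04 (95% interval -0.33 to 0.40).

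The other effectors outside the OAS family lay within the same range. Ifit3 and Herc6, a mouse ligase for Isg15, each had a log2 fold change of 0.14. Cmpk2, a mitochondrial nucleotide kinase whose gene neighbours Rsad2, had 0.13, and Parp14, an ADP-ribosyltransferase, had 0.07. Ifi44 and Ifit2 each had 0.02 and Rtp4 had 0.00. The lowest adjusted p of those 7 genes in limma was 0.63.

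The OAS family, whose enzymes make an oligoadenylate messenger on double-stranded RNA, had a median log2 fold change of -0.02 over 7 members, of which 3 were above 0. Oasl1, which in mice lacks enzyme activity and restrains translation of Irf7, read 8.40, 8.27, 7.89 and 8.67 in Intact pools, against 8.21, 8.03, 7.85 and 7.75 in SVX/VAS pools. The Intact pools other than replicate 3 lay above all SVX/VAS pools, with a log2 fold change of 0.35 (95% interval -0.04 to 0.74, adjusted p = 0.47 by limma). Oas1a read 7.65, 7.99, 7.97 and 8.11 in Intact pools, against 8.05, 8.18, 8.07 and 8.12 in SVX/VAS pools. Oas2 read 10.33, 10.48, 10.18 and 10.54 in Intact pools, against 10.49, 10.69, 10.41 and 10.57 in SVX/VAS pools. Both means were lower with Intact mating and the groups overlapped, with log2 fold changes of -0.18 (adjusted p = 0.59 by limma) and -0.16 (adjusted p = 0.63). Oas1b, Oas3, Oas1g and Oasl2 had log2 fold changes of 0.15, 0.10, -0.02 and -0.07. The Oas1 genes are near-identical copies on chromosome 5, so their probes may share signal and single members of that cluster are uncertain.

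Members with and without the ISRE letters overlapped in their differences between the matings. The 10 members with a match had log2 fold changes between -0.18 (Oas1a) and 0.41 (Isg15), with a median of 0.10. The 20 with a window and no match ran between -0.14 (Irf9) and 0.59 (Isg20), with a median of 0.03. Ifit1 and Isg15, both with several matches in the stretches printed above, had log2 fold changes of 0.09 and 0.41.

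Variation between pools of the same group was shared across the family. Deviations of the members from their group means correlated at a mean pairwise r of 0.50 over the 8 arrays, against 0.00 over all clusters, a description of arrays that all members share. Intact replicate 4 had the highest Intact value for 26 of 39 members, against 26.4% of all clusters, and Intact replicate 3 the lowest for 26, against 27.3%. In the SVX/VAS group, replicate 2 was highest for 22 members, against 25.7% of all clusters, and replicate 3 lowest for 20, against 25.4%. Averaged over the members, the log2 level was 8.58, 8.75, 8.50 and 8.79 in Intact pools, against 8.57, 8.63, 8.48 and 8.55 in SVX/VAS pools. The Intact pools spanned more than the SVX/VAS pools, and 2 of them, replicates 1 and 3, lay within the SVX/VAS range. The SD between pools was larger in the Intact group for 33 of 39 members (84.6%), against 60.6% of all clusters, with a median SD of 0.17 in Intact and 0.09 in SVX/VAS pools.

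**Figure D3:**
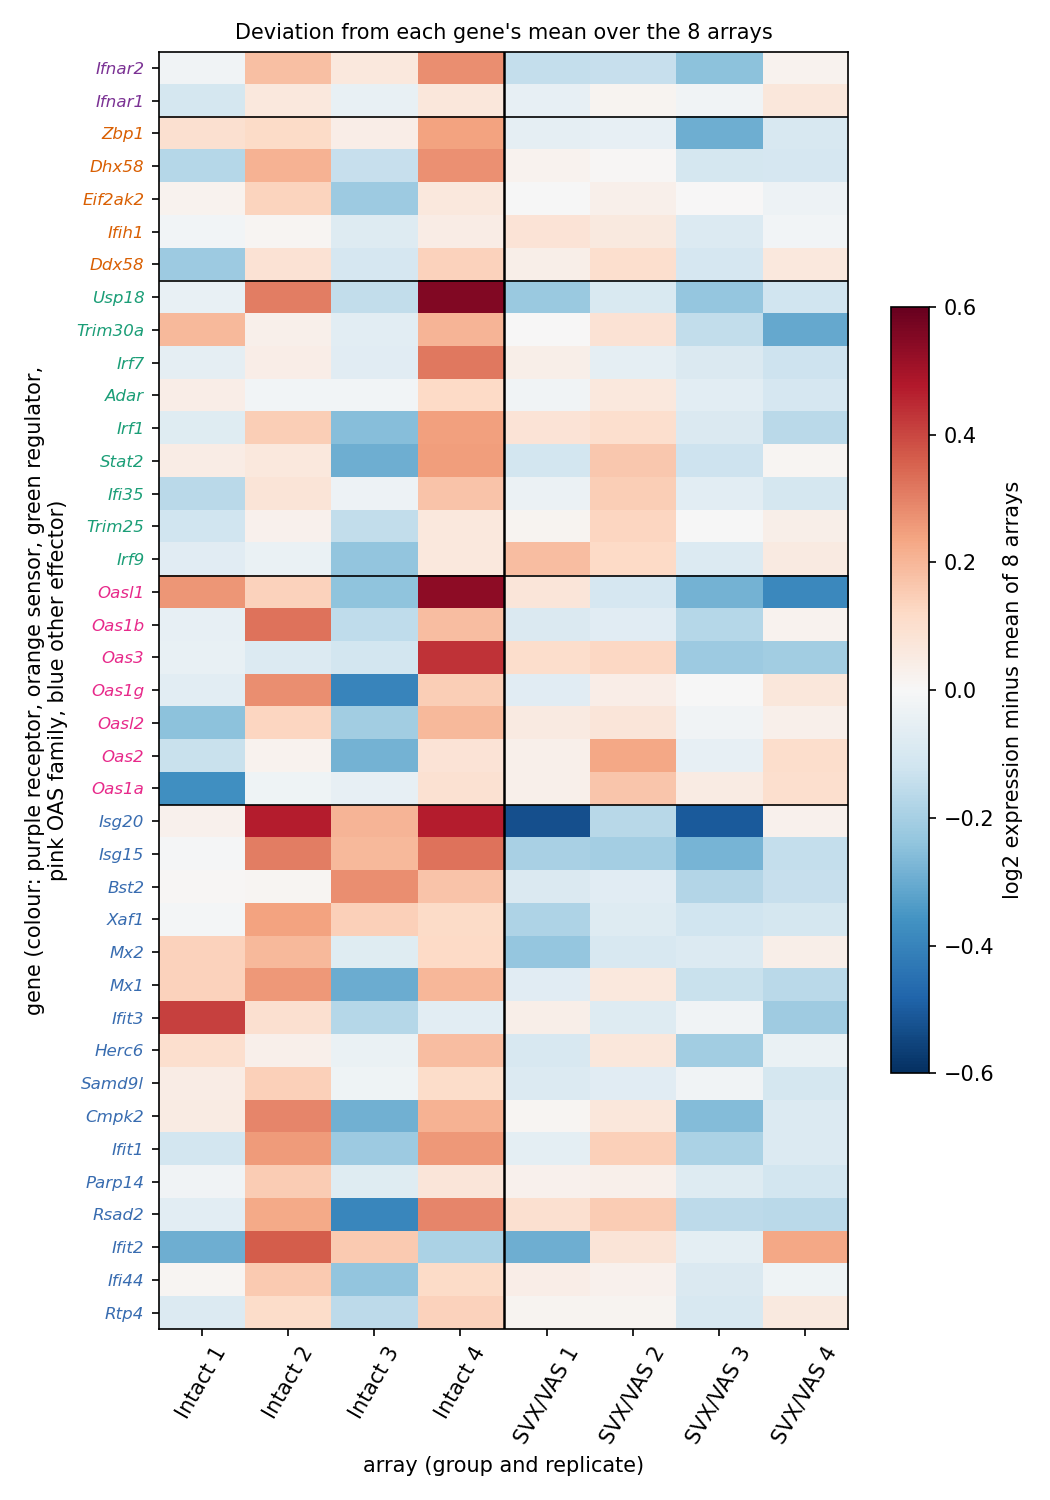
Deviation of log2 expression from each gene's mean over the 8 arrays (colour, red above and blue below), for 39 interferon-stimulated genes (rows, grouped by role) on each array (columns, Intact left of SVX/VAS). The columns of Intact replicates 2 and 4 are mostly red and that of Intact replicate 3 is mostly blue. In Intact replicate 3, the genes above their mean are Isg15, Isg20, Bst2, Xaf1, Ifit2, Ifnar2 and Zbp1.

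Cell type markers were set beside these values, since in a pooled tissue a change in the share of a cell type and a change in RNA per cell cannot be told apart. All 8 epithelial markers passed the filter on dim clusters, 6 of them with a log2 fold change above 0, and their mean log2 level was between 9.68 and 9.99 in Intact pools and between 9.65 and 9.90 in SVX/VAS pools. Intact replicates 4 and 3, highest and lowest for most members, were also highest and lowest of the Intact pools for the epithelial mean. Intact replicates 1 and 2 stood in opposite order, at 8.58 and 8.75 for the members' mean and 9.87 and 9.78 for the epithelial mean. The muscle mean was also highest in Intact replicate 4 (8.15). Of the Intact pools, replicate 3 was highest for the stromal (8.00) and endothelial (6.77) means. In the SVX/VAS group, replicate 2, highest for most members, was highest for the epithelial mean too. The lowest there was replicate 4 at 9.65 and not replicate 3, which stood at 9.77. One epithelial marker, the keratin Krt18, named after its values were seen, was lower in every Intact pool than in any SVX/VAS pool, with a log2 fold change of -0.41 (unadjusted p = 0.0057 and adjusted p = 0.20 in limma). Stromal markers had 0 of 7 log2 fold changes above 0, with a median of -0.21, and their mean ran between 7.17 and 8.00 in Intact pools and between 7.51 and 8.06 in SVX/VAS pools. Endothelial markers had 1 of 4 above 0, with a median of -0.17. No stromal or endothelial marker reached an unadjusted p under 0.05 in limma. Muscle markers were present in every pool, although the outer muscle layer had been removed, and Myh11, the smooth muscle myosin, ranged between 7.24 and 8.58 in Intact pools and between 7.44 and 8.29 in SVX/VAS pools. All 9 neutrophil markers had a log2 fold change above 0, with a median of 0.13, but Mmp8 (0.00 as printed) and Camp (0.01) hardly differed. An unadjusted p under 0.05 was reached by 2 of them (S100a8 at 0.70 and Cxcr2 at 0.54), and 0 passed after adjustment by limma. For both genes the groups overlapped. The mean of the 9 ran between 4.74 and 5.07 in Intact pools and between 4.53 and 4.72 in SVX/VAS pools, without overlap. Of the 9 markers, 4 were too dim to pass the filter on dim clusters, S100a8 among them. Plasmacytoid dendritic cell markers, of a cell type known as a strong source of interferon, ran between 5.38 and 5.70 in Intact pools and between 5.38 and 5.57 in SVX/VAS pools, with 2 of 4 above that filter. Of these, 2 of 4 had a log2 fold change above 0, with Cox6a2 at 0.44 (unadjusted p = 0.032 and adjusted p = 0.36 in limma). It was above 0 for 4 of 6 monocyte and macrophage, 6 of 6 NK and T cell and 3 of 6 sperm markers. The filter on dim clusters was passed by 6, 2 and 2 of these markers. NK and T cell markers had log2 fold changes between 0.01 (Eomes) and 0.18 (Nkg7). In those 3 lists only the sperm marker Prm1 had an unadjusted p under 0.05 (0.0073, adjusted p = 0.22 in limma). Its groups did not overlap, but its cluster was too dim for the filter. The part of any of these cell types in the values of Isg15, Isg20 and the other members was not tested.

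The rest of the pathway, a list of 42 ligands, receptors, kinases, factors, adaptors and inhibitors, had 38 measured genes. By limma 0 of the 38 had an adjusted p under 0.05, and 0 met the submitters' criteria. The unadjusted p was under 0.05 for 3 of 38 genes higher with Intact mating, against 5.13% of all clusters and 5.95% of those past the filter. It was so for 4 of 38 lower, against 6.78% and 9.09%. Groups did not overlap for 3 genes higher and 3 lower, against 3.37% and 4.81% of all clusters. Of the clusters past the filter, the shares were 4.19% and 7.03%. The median log2 fold change was -0.03, with 18 genes above 0 and 20 below. Of the 7 genes with an unadjusted p under 0.05, 5 are described here, and Ikbke was named after its values were seen.

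Of the ligands, Ifne read 7.53, 7.33, 7.43 and 7.57 in Intact pools, against 7.06, 7.18, 7.04 and 7.12 in SVX/VAS pools. Every Intact pool was above every SVX/VAS pool, at 1.29-fold (95% interval 1.12 to 1.49, unadjusted p = 0.0032 and adjusted p = 0.17 in limma). Ifnb1, the interferon made first after virus sensing, read 3.08, 3.05, 3.60 and 3.05 in Intact pools, against 3.78, 3.41, 3.31 and 2.95 in SVX/VAS pools. Ifng, the interferon of NK and T cells, read 4.96, 5.26, 4.91 and 4.85 in Intact pools, against 4.57, 4.90, 4.79 and 4.68 in SVX/VAS pools. Both clusters were too dim to pass the filter and overlapped between the groups, with log2 fold changes of -0.17 and 0.26. The 11 ligands had 5 clusters past the filter, and the Ifna genes resemble each other so closely that their probes may pick up one another.

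For both kinases described here, every Intact pool was below every SVX/VAS pool. Jak2, a kinase of the interferon gamma and cytokine receptors, read 10.08, 10.03, 10.15 and 9.99 in Intact pools, against 10.49, 10.58, 10.67 and 10.66 in SVX/VAS pools. Its log2 fold change was -0.54 (SE 0.087), with an unadjusted p of 0.00017 and an adjusted p of 0.069 in limma. That adjusted p was 0.027 when dim clusters were left out and 0.025 with an intensity trend and robust prior, and over the other alternatives it lay between 0.055 and 0.23, the highest with the replicate number as a block. Tyk2, the kinase of Ifnar1, read 7.21, 7.23, 7.10 and 7.41 in Intact pools, against 7.58, 7.73, 7.55 and 7.44 in SVX/VAS pools. Its log2 fold change was -0.34 (adjusted p = 0.24 by limma).

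In the sensing arm, Tmem173 (STING), the adaptor for cytoplasmic DNA, read 9.98, 10.04, 9.58 and 10.25 in Intact pools, against 10.40, 10.67, 10.41 and 10.31 in SVX/VAS pools. Ikbke, a kinase that activates Irf3 and Irf7, read 7.31, 7.76, 7.17 and 7.89 in Intact pools, against 7.12, 6.85, 7.13 and 6.82 in SVX/VAS pools. The groups did not overlap for either gene, with log2 fold changes of -0.48 for Tmem173 (adjusted p = 0.24 by limma) and 0.55 for Ikbke (adjusted p = 0.25). Irf3, the factor that starts Ifnb1 transcription, read 7.08, 7.31, 7.30 and 7.28 in Intact pools, against 7.17, 7.37, 6.93 and 7.10 in SVX/VAS pools, a log2 fold change of 0.10.

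The feedback inhibitors overlapped between the groups. Socs1, which blocks receptor-bound kinases, read 5.87, 6.24, 6.33 and 6.07 in Intact pools, against 5.97, 6.08, 6.07 and 5.94 in SVX/VAS pools. Socs3, chiefly an inhibitor of the interleukin-6 receptor family, read 6.70, 6.81, 6.74 and 6.49 in Intact pools, against 6.25, 6.63, 6.68 and 6.19 in SVX/VAS pools. Log2 fold changes were 0.11 for Socs1 (adjusted p = 0.76 by limma) and 0.25 for Socs3 (adjusted p = 0.53).

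**Figure D4:**
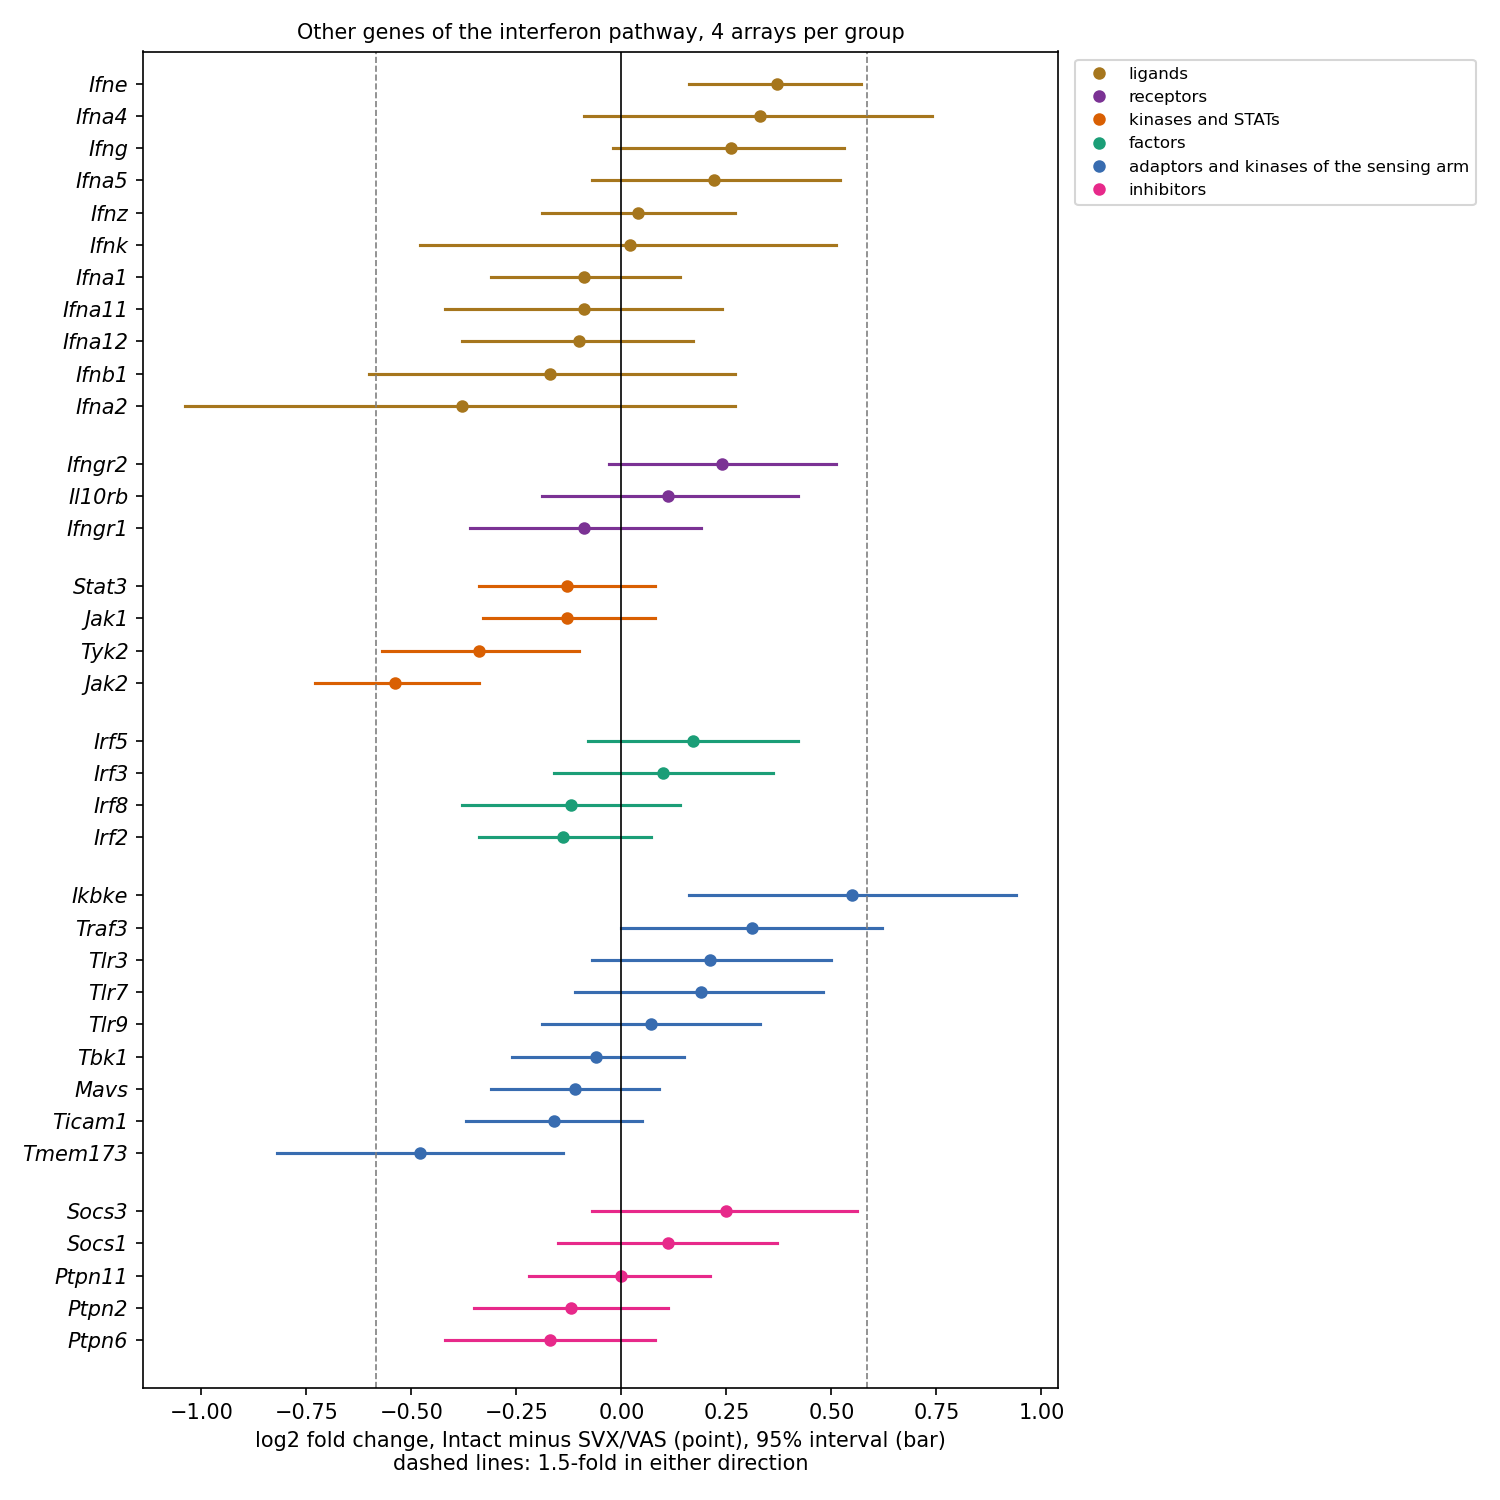
Log2 fold change (x axis, Intact minus SVX/VAS) of other measured genes of the interferon pathway, by role, with 95% intervals from limma as bars and 1.5-fold in either direction as dashed lines. Jak2 (-0.54) and Tmem173 (-0.48) lie left of 0 and Ikbke (0.55) and Ifne (0.37) right of it.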

How the data were processed

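Endometrial RNA from 8 pools was hybridised to 8 arrays. Per the series' design text, the authors used Partek Genomics Suite 6.6 with RMA background correction, GC content correction and mean probe summarization, and called clusters at 1.5-fold with a t-test. No source used here names the genome build. The deposited value table holds log2 expression per cluster, and the deposited comparison table holds ratios, p-values and the scores of the authors' ANOVA (signed fold, F and sums of squares). Group differences of the deposited log2 values matched the log2 of the deposited ratio within 6.0e-05. No spot brightness over background is used here, and the number of arrays limits the precision.

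From those values, limma 3.58.1 in R 4.3.3 (lmFit, eBayes) fitted Intact minus SVX/VAS over 41345 clusters, with Benjamini-Hochberg adjustment and no filter. The fit was tested on simulated data with independent errors and planted changes larger than that of any member. That test does not show how well changes of the members' size are found. The filter on dim clusters, used as an alternative, kept clusters above the 40th percentile of their array on at least 4 arrays, and all 39 members passed it. The members, gene lists and markers were chosen with earlier results of these data known. Values per array are given for the members past either call rule, the 12 with the smallest p and 10 further named genes, and elsewhere in the pathway for the 4 with the smallest p and further named genes. Some genes of the pathway list are counted but not reported singly here.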

Additional observations from a re-analysis of the deposited data

Results flagged for a closer look

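In 4 of 154 sets of 4 pools tested, 1 pool stood further from the others than Dixon's 95% critical value allows, and chance alone flags about 1 set in 20. One of them was a member: Oas3 read 8.77 in Intact replicate 4, against 8.23 to 8.29 in the other Intact pools. Of the other pathway genes, Ifnb1 read 3.60 in Intact replicate 3, against 3.05 to 3.08 in the other Intact pools. Ifnz read 5.54 in Intact replicate 3, against 5.68 to 5.70. Irf3 read 7.08 in Intact replicate 1, against 7.28 to 7.31.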

How the results depend on the processing

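No member had an adjusted p under 0.05 in any of the 18 alternatives run. They were not 18 separate checks. Taking the brightest cluster of each gene left every member as in the fit above. The methods' t-test and the authors' deposited table gave members the same adjusted p. The adjusted p ranged between 0.081 and 0.33 for Isg15 and between 0.11 and 0.37 for Isg20. The labels do not say whether same-numbered pools belong together. Deviations of same-numbered pools correlated at r of 0.068, 0.026, -0.021 and -0.033, against -0.101 to 0.108 for pools of different number, which does not settle it. With the replicate number as a block 0 clusters were called higher and 0 lower, and the members' counts were as without it. Over the whole table, where 21 clusters were higher and 13 lower, the methods' t-test and the authors' deposited table each gave 8 and 2, quantile normalization 38 and 16, the filter on dim clusters 99 and 137, adjustment over clusters with 1 symbol 41 and 33, an intensity trend with robust prior 68 and 105, and array weights 43 and 34. Leaving out 1 array at a time gave 2 to 41 higher and 0 to 10 lower. Members past the submitters' criteria ranged between 0 and 1. The causes were not tested, apart from fewer clusters or arrays in some settings.

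Of 702 member values under the alternatives, 41 in 14 genes had the opposite sign, all of genes with a log2 fold change of at most 0.10 in size. Many of the 702 could not change sign. Settings that altered only the test, the block, the filter, the adjustment or the choice of cluster left each member's fold change as it was. It could differ only with an array left out, quantile normalization, median centring or array weights. With single arrays left out, the log2 fold change ranged from -0.10 to 0.12 for Ifit2 and -0.11 to 0.11 for Oas1g. Its range was -0.03 to 0.16 for Oas3, -0.14 to 0.00 for Oasl2, -0.06 to 0.17 for Rsad2 and -0.04 to 0.12 for Irf1. Ifih1 ranged from -0.05 to 0.00, the upper end being just above 0 without Intact replicate 3 and without SVX/VAS replicate 1. For Ddx58 the range was -0.10 to 0.01, for Stat2 -0.05 to 0.13, for Ifi35 -0.02 to 0.09 and for Ifi44 -0.03 to 0.11. For Rtp4 it was -0.04 to 0.06, for Eif2ak2 -0.04 to 0.07 and for Ifnar1 -0.03 to 0.02. Outside the members, Ifnk ranged from -0.15 to 0.21, Ifna11 from -0.20 to 0.03, Ifnz from -0.03 to 0.09 and Ptpn11 from -0.04 to 0.05. Quantile normalization gave 0.01 for Oas1g, 0.01 for Ifih1, 0.03 for Ifnar1 and 0.03 for Ptpn11, median centring -0.00 for Eif2ak2, and array weights 0.01 for Oas1g, -0.02 for Ifnk and 0.01 for Ptpn11.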

Other observations

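Ifi27, the listed gene with no cluster under its symbol, is the current RefSeq symbol of a gene once called Ifi27l1. The Ifi27l1 cluster read 8.05, 8.23, 8.06 and 8.29 in Intact pools, against 8.19, 8.37, 8.62 and 8.45 in SVX/VAS pools. The groups overlapped, with a log2 fold change of -0.25 (95% interval -0.51 to 0.01, adjusted p = 0.44 by limma). It was not counted among the members, and its sign is opposite to that of most of them.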
